A study of Ambystoma mexicanum with 12 samples.

Results

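Transcript levels of 50 genes of the BMP and TGF-β signalling pathways were followed in axolotl spinal cord, out of 15091 gene symbols measured. The genes were taken by human gene symbol. They are 7 BMP ligands, 6 growth differentiation factors, 3 TGF-β ligands, 2 activin and inhibin β subunits, 6 type I receptors, 4 type II receptors, the co-receptor TGFBR3, 5 receptor-regulated SMADs, the common partner SMAD4, 2 inhibitory SMADs, the 4 ID genes, 4 latent TGF-β binding proteins, 4 secreted antagonists, and BMP1, a procollagen protease that carries a BMP symbol but is not a ligand. Of these 50 genes, 45 averaged 1 TPM or more and were tested.

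In this pathway a secreted dimer brings together type II and type I receptor kinases, which phosphorylate receptor-regulated SMADs that enter the nucleus with SMAD4. SMAD1, SMAD5 and SMAD9 carry the signal of BMPs, SMAD2 and SMAD3 that of TGF-β and activins, and the ID genes and the inhibitory SMADs are direct targets that rise with BMP signalling. In the vertebrate spinal cord BMPs pattern the dorsal neural tube, and after injury in mammals both arms act on astrocytes and scar formation.

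RNA was sequenced from cords of white-strain axolotls in 4 groups of 3 libraries, and the labels give animals of 2 to 3 cm in length for all groups and 10 pooled animals for each library. The 4 dpi inhibitor group received a miR-200a inhibitor (miR-200 in the labels) in the central canal, with removal of a piece of cord and collection of the lesion area 4 days post injury (dpi). The uninjured inhibitor group received the inhibitor without injury, the 4 dpi control group received a control inhibitor with the same injury, and the uninjured group is given as uninjured cord with no agent named. The titles of uninjured replicates 1 and 5 carry the same control tag as those of the 4 dpi control libraries, and that of the unnumbered library does not. The study's methods, which describe electroporation of the injected oligonucleotides, another pool size and longer animals, do not describe the uninjured inhibitor group. Whether that tag means a control injection is not stated, so injury or inhibitor cannot be told apart from the injection procedure in comparisons with uninjured cords. Glial cells line the canal, but the RNA came from whole tissue, in which fewer cells of a type and less RNA per cell cannot be told apart. The level of miR-200a was not analysed here. Within a group, values are listed in the order of library numbers, 5, 6 and 7 for both inhibitor groups, 1, 5 and 6 for the 4 dpi control, and 1, unnumbered and 5 for uninjured cords.

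Values are TPM (transcripts per 1000000), which are relative, and sequencing depth is therefore unknown. The limma test used log2(TPM + 0.1) of the 13824 genes that averaged 1 TPM or more, fold changes are on this scale, and a gene changed where its adjusted p (Benjamini-Hochberg, over those genes) was under 0.05. Over these genes the median log2 fold change stood at -0.81 in 4 dpi inhibitor and -1.10 in uninjured inhibitor cords, both against uninjured cords. The same median was -0.69 between 4 dpi inhibitor and 4 dpi control, 0.28 between the 2 inhibitor groups (4 dpi over uninjured) and -0.08 between 4 dpi control and uninjured cords. Each comparison was therefore also made after dividing each library by a median-of-ratios factor, called scaling here, which brought these medians to -0.14, -0.17, -0.07, 0.01 and -0.05. Both libraries numbered 1 stood apart, with factors of 1.67 and 1.77 against 0.649 to 1.21 in the other 10 libraries. Factors were 0.649 to 0.932 in all inhibitor libraries and 1.08 to 1.77 in all others. The share of all genes with every deposited inhibitor value below every other value was not counted. Nor was the share of all genes whose values in 1 group lay wholly below or above those of another. Markers of neurons (12 of 12 listed genes, none listed at 0 in any library) summed to 1391 to 1665 TPM in 4 dpi inhibitor, 2505 to 3557 in uninjured inhibitor, 2845 to 6197 in 4 dpi control and 2602 to 15238 TPM in uninjured libraries. Those of ependymoglia (10 of 10, none at 0) summed to 901 to 1028, 1172 to 1678, 1193 to 2429 and 1109 to 4796 TPM in the same order. Skeletal muscle markers (11 of 11, none at 0) summed to 6016 to 6673, 3541 to 8675, 10159 to 19263 and 10839 to 43360 TPM in that order. Granulocyte markers (6 of 7 listed genes measured, LYZ by far the highest, and CXCR2, PRG2 or CSF3R at 0 in some libraries) summed to 1789 to 2148, 653 to 766, 868 to 1020 and 88.2 to 110 TPM in that order. Fibroblast markers (11 of 11, none at 0) summed to 4047 to 4248, 1743 to 3346, 2683 to 4570 and 1738 to 2699 TPM. All these sums are of deposited TPM, and scaled sums were not made, so their differences between groups include the shift of all genes. Of the 10 ependymoglia markers, 7 fell and 1 rose in 4 dpi inhibitor against uninjured cords as deposited (against 31.2% and 9.39% of all genes). The part of these cell types in the results was not tested.

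TGFBR1, the type I receptor for TGF-β, was the most abundant member, at a mean of 274 TPM over the 12 libraries. It was followed by the BMP targets ID1 at 83.1 and ID3 at 69.1 TPM, by ID2 at 49.7, the type I receptor ACVR1 at 45.4, SMAD5 at 44.7 and the ligand TGFB1 at 40.6 TPM. BMP ligands lay lower, from BMP7 at 9.73 TPM down to BMP10 at 0.489 TPM. TGFBR1 held 70.4% to 71.8% of the summed TPM of all receptors in 4 dpi inhibitor and 66.0% to 70.7% in uninjured inhibitor libraries. Its share was 57.1% to 72.2% in 4 dpi control and 52.0% to 64.9% in uninjured libraries. The 5 members below a mean of 1 TPM were BMP5, BMP8A, BMP10, GDF3 and the BMP receptor BMPR1A, and 11 members were listed at 0 in at least 1 library. Of the 5, BMP5, BMP8A, BMP10 and GDF3 were listed at 0 in every 4 dpi inhibitor library, and their highest values anywhere were 3.95, 2.19, 3.07 and 3.24 TPM. BMPR1A had 0.408, 0.381 and 0.475 TPM in 4 dpi inhibitor libraries and 0.0233, 0.333 and 0.0260 TPM in uninjured inhibitor libraries. BMPR1A had 2.66, 0.362 and 0.483 TPM in 4 dpi control libraries and 3.84, 0.605 and 0.838 TPM in uninjured libraries. All its values of uninjured inhibitor libraries lay below all those of uninjured libraries. No test was made for these 5.

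**Figure D1:**
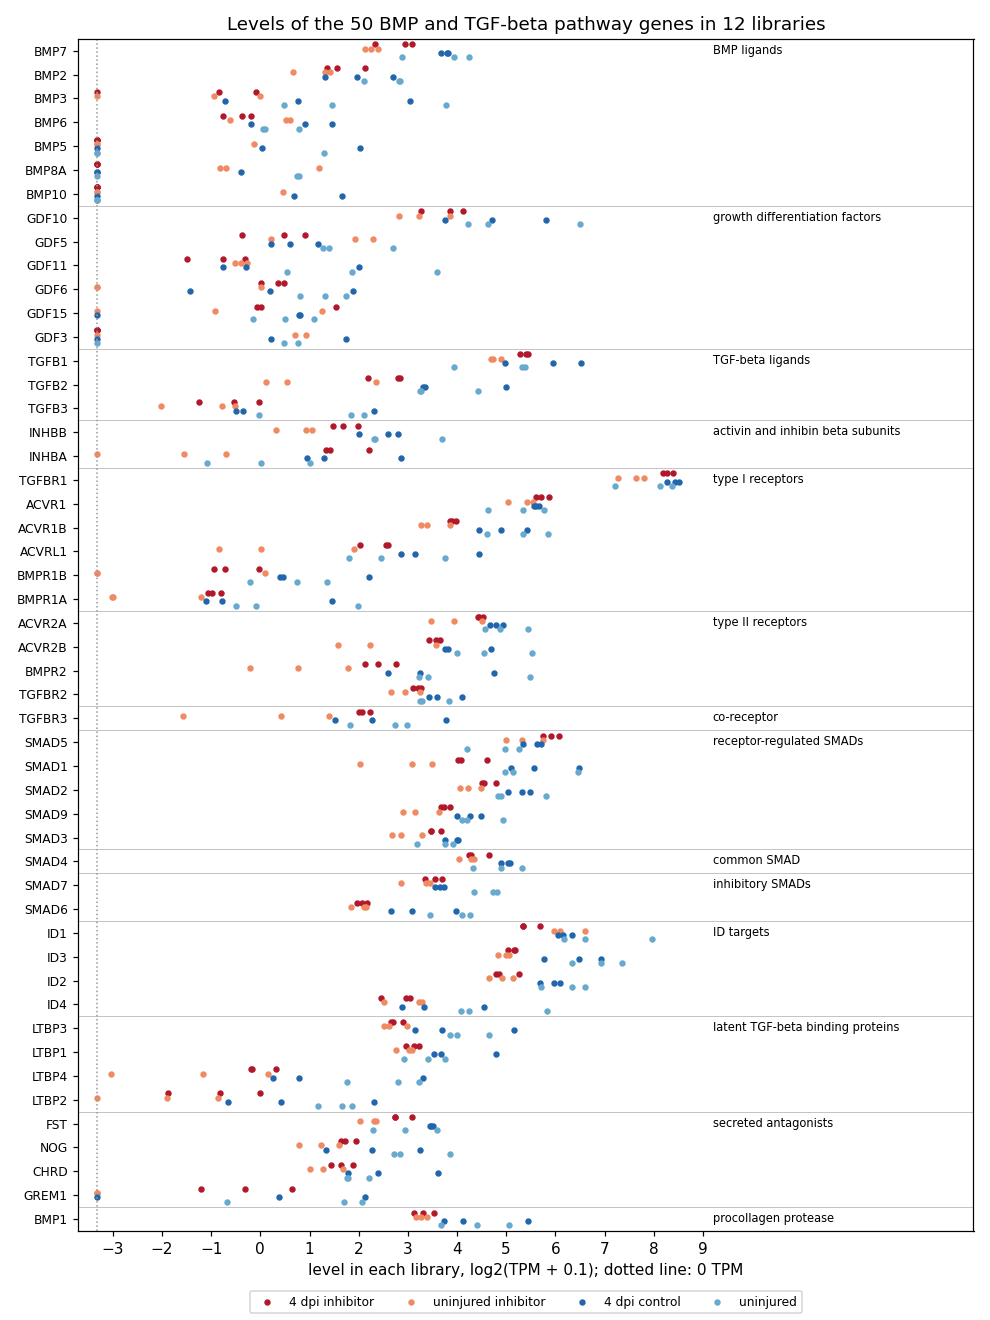
Level of each of the 50 members in each of the 12 libraries, as log2(TPM + 0.1), grouped by role and coloured by group, with a dotted line at 0 TPM. TGFBR1 lies highest with a mean of 274 TPM, and ID1, ID3, ID2 and ACVR1 follow. Orange dots of uninjured inhibitor libraries lie far left for BMPR2, TGFBR3, LTBP4 and GREM1.

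In uninjured inhibitor cords most members were lower than in uninjured cords. There, 31 of 45 members fell (68.9%, against 51.1% of all genes tested) and 0 rose (against 7.39%). After scaling, 13 fell (28.9%, against 17.8% of all genes) and 2, SMAD5 and ACVR1, rose (4.44%, against 19.4%). All 13 were among the 31. The median log2 fold change was -1.48 over the members and -1.10 over all genes, and -0.76 and -0.17 after scaling. Scaled calls rested in part on single libraries, with 7 members called without uninjured inhibitor replicate 5, 6 without replicate 7 and 8 without uninjured replicate 1. How many of all genes those fits called is not given beside these counts. Uninjured inhibitor replicates 5 and 7 had 1170 and 1399 of all genes listed at 0, against 511 to 823 in the other libraries, replicate 6 included. Members at 0 numbered 6 and 9 in these 2 libraries, against 0 to 5 in the others. The part of undetected genes in these falls was not tested.

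In 4 dpi inhibitor cords against uninjured cords, 14 of 45 members fell (31.1%, against 31.2% of all genes) and SMAD5 rose (2.22%, against 9.39%), so that the share that fell was that of all genes. After scaling, ID3, ID4, SMAD6 and GDF11 fell (8.89%, against 12%), all 4 also called as deposited. Scaled values gave 5 rises, of SMAD5, ACVR1, TGFBR1, TGFB1 and INHBA (11.1%, against 16.6%). The median was -1.06 over the members and -0.81 over all genes, and -0.38 and -0.14 after scaling. The count of 15 became 9 without 4 dpi inhibitor replicate 5, 7 without replicate 7 and 9 without uninjured replicate 1. Without uninjured replicate 1 not all of the 9 were among the 15. The 9 scaled calls became 5 without 4 dpi inhibitor replicate 5, 4 without replicate 6 and 3 without replicate 7. Calls among all genes in the same fits are not given, so these losses are not set against theirs. Comparisons of 4 dpi inhibitor, uninjured inhibitor and 4 dpi control with uninjured cords share the same 3 uninjured libraries.

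No member passed for 4 dpi control against uninjured, where 0.904% of all genes did (0.977% after scaling), and 4 members and 1410 of all genes had an unadjusted p under 0.05 (9 and 1544 after scaling). Without the unnumbered uninjured library TGFB1 passed on the scaled values. In the direct comparison of 4 dpi inhibitor with 4 dpi control, ID3 fell (2.22% of members, against 3.19% of all genes) and no member rose (against 0.629%). After scaling, 0 members and 0% of all genes passed, with 3 members and 2559 genes at an unadjusted p under 0.05. On the deposited values single libraries moved the count, with 6 members called without uninjured replicate 1 (ACVR1B, ID2, ID3, SMAD1, SMAD2 and SMAD6). The count was 5 without 4 dpi control replicate 5 (ACVR1B, ID2, ID3, LTBP3 and SMAD6) and 3 without the unnumbered uninjured library (ID2, ID3 and SMAD6). ID2 alone passed without 4 dpi inhibitor replicate 6, and 0 members without replicate 5 or 7 of that group, any uninjured inhibitor library, 4 dpi control replicate 1 or 6, or uninjured replicate 5. These counts are given without those of all genes in the same fits, so a move of members cannot be told from a move of all genes. For 4 dpi inhibitor against uninjured inhibitor 0 members passed, against 0.622% of all genes (1.28% after scaling), with 12 members and 2871 genes at an unadjusted p under 0.05 (9 and 3048 after scaling). Without uninjured inhibitor replicate 6 that count was 6, of 1072 genes called in all, and 8 of 1533 after scaling. INHBA alone passed without uninjured replicate 1 or the unnumbered uninjured library on either scale. The interaction of injury and inhibitor passed for 0 members, against 0.0434% of all genes (0.0289% after scaling), with 5 members and 1130 genes at an unadjusted p under 0.05 (7 and 1329 after scaling), and GDF6 alone passed on the scaled values without uninjured inhibitor replicate 6.

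**Figure D2:**
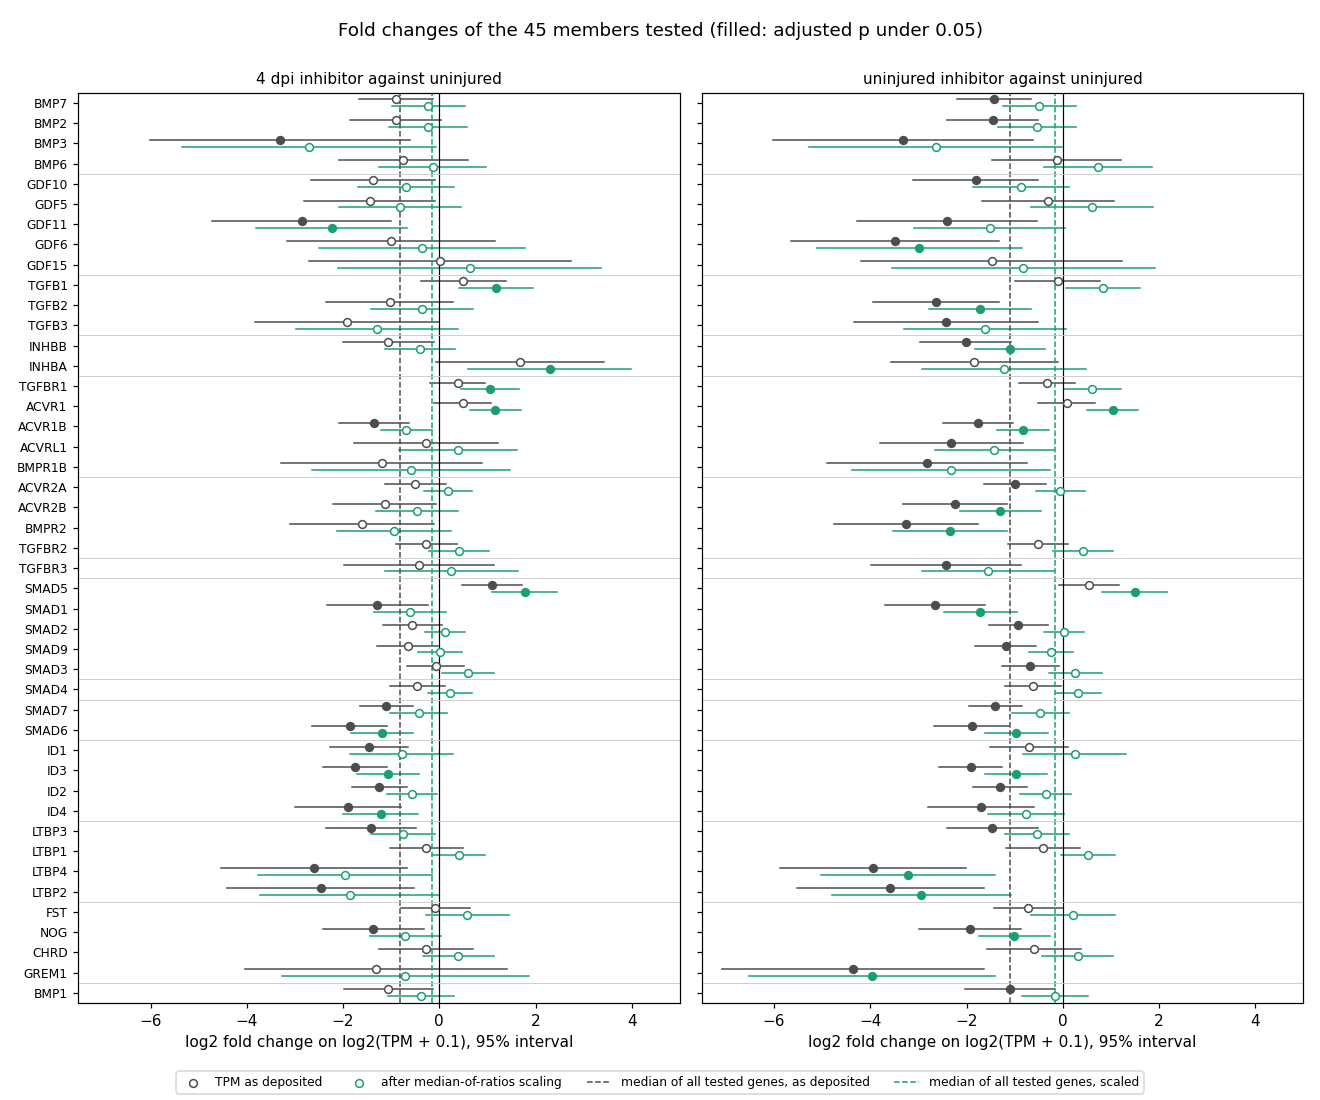
Log2 fold change with its 95% interval for the 45 members tested, 4 dpi inhibitor against uninjured (left) and uninjured inhibitor against uninjured (right), from TPM as deposited (grey) and after scaling (green), filled where the adjusted p was under 0.05, with dashed lines at the median of all genes. On the right most members lie left of 0 on the deposited scale, 31 of 45 past the test, whereas SMAD5 and ACVR1 lie right of 0 on both scales. The place of GREM1 on the right is set by the 0.1 TPM added, since all 3 uninjured inhibitor libraries were at 0.

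Among BMP ligands, BMP7, BMP2 and BMP3 fell in uninjured inhibitor cords as deposited, where 51.1% of all genes fell. None of the 4 tested passed after scaling, where 17.8% of all genes fell. BMP7, a ligand of the roof plate, had 4.93, 8.44 and 7.53 TPM at 4 dpi with the inhibitor and 4.28, 5.15 and 4.67 TPM in uninjured inhibitor cords. For BMP7, 4 dpi control cords gave 13.9, 12.6 and 13.99 TPM and uninjured cords 15.3, 18.8 and 7.24 TPM. All 6 inhibitor libraries lay below all 3 libraries of the 4 dpi control, and the uninjured inhibitor libraries also below all 3 uninjured ones (log2 fold change -1.43, SE 0.36, adjusted p = 0.00648, and -0.49, adjusted p = 0.277 after scaling). Both separations were lost after scaling. BMP2, another dorsalizing ligand, had 2.87, 2.46 and 4.26 TPM in 4 dpi inhibitor cords and 1.48, 2.56 and 2.40 TPM in uninjured inhibitor cords. Values of BMP2 were 6.42, 2.39 and 3.83 TPM in 4 dpi control cords and 6.93, 7.04 and 4.23 TPM in uninjured cords. Its uninjured inhibitor values lay below all uninjured ones as deposited (log2 fold change -1.46, SE 0.44, adjusted p = 0.0147, and -0.54, adjusted p = 0.265 after scaling). The scaled BMP2 ranges overlapped. BMP3, an atypical family member that opposes other BMPs, had 0.462, 0 and 0.846 TPM in the 4 dpi inhibitor group and 0.420, 0.896 and 0 TPM in the uninjured inhibitor group. The BMP3 values were 8.09, 0.509 and 1.59 TPM in 4 dpi controls and 13.5, 1.29 and 2.65 TPM in uninjured cords. BMP3 fell against uninjured cords in uninjured inhibitor cords (log2 fold change -3.33, SE 1.25, adjusted p = 0.0367) and 4 dpi inhibitor cords (log2 fold change -3.31, SE 1.25, adjusted p = 0.0497). Neither passed after scaling (-2.64, adjusted p = 0.103, and -2.71, adjusted p = 0.111). The size of these folds depends on the 0.1 TPM added, since 2 libraries were at 0, and the values of both libraries numbered 1 were far above the rest. BMP6 averaged 0.645 ± 0.143 TPM in 4 dpi inhibitor and 1.17 ± 0.385 TPM in uninjured libraries (SD, n = 3 each), and did not pass in any comparison. BMP2 lost its call in uninjured inhibitor against uninjured cords without uninjured inhibitor replicate 5 (adjusted p = 0.0644). The call of BMP3 in uninjured inhibitor against uninjured cords was lost without uninjured inhibitor replicate 5 or 7 or uninjured replicate 1 or 5 (adjusted p 0.0567 to 0.148). BMP3 lost its call in 4 dpi inhibitor against uninjured cords without 4 dpi inhibitor replicate 5, 6 or 7 or uninjured inhibitor replicate 5 or 4 dpi control replicate 6 or uninjured replicate 1 or 5 (adjusted p 0.0602 to 0.185).

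Of the growth differentiation factors, GDF10 was the most abundant and GDF11 and GDF6 had calls that remained after scaling. GDF11, which in mice restrains neuron production and patterns the body axis, had 0.708, 0.256 and 0.487 TPM in the 4 dpi inhibitor group and 0.725, 0.601 and 0.660 TPM in the uninjured inhibitor group. The GDF11 values were 3.93, 0.488 and 0.713 TPM in 4 dpi controls and 12.04, 1.36 and 3.56 TPM in uninjured cords. All 6 inhibitor libraries lay below all uninjured libraries, and the 4 dpi control libraries overlapped both. GDF11 fell in 4 dpi inhibitor cords against uninjured cords (log2 fold change -2.86, SE 0.86, adjusted p = 0.0211, and -2.23, adjusted p = 0.0366 after scaling). In uninjured inhibitor cords it fell as deposited (log2 fold change -2.40, SE 0.86, adjusted p = 0.0308, and -1.52, adjusted p = 0.113 after scaling). GDF10, a ligand close to BMP3, had 17.2, 14.4 and 9.56 TPM in 4 dpi inhibitor libraries and 6.98, 14.4 and 9.32 TPM in uninjured inhibitor libraries. GDF10 had 55.7, 13.5 and 26.2 TPM in 4 dpi control libraries and 91.0, 24.6 and 18.5 TPM in uninjured libraries. The highest values were those of both libraries numbered 1, and GDF10 fell in uninjured inhibitor against uninjured cords as deposited (log2 fold change -1.81, SE 0.60, adjusted p = 0.0216, and -0.87, adjusted p = 0.148 after scaling). GDF6, a BMP-type ligand of the dorsal neural tube and joints, had 1.18, 0.909 and 1.30 TPM at 4 dpi with the inhibitor and 0, 0.916 and 0 TPM in uninjured inhibitor cords. For GDF6, 4 dpi control cords gave 3.59, 1.04 and 0.272 TPM and uninjured cords 3.25, 1.65 and 2.37 TPM. GDF6 in uninjured inhibitor cords lay wholly below uninjured cords, and 4 dpi control replicate 1 was highest. GDF6 fell in uninjured inhibitor cords on both scales (-3.49, adjusted p = 0.0118, and -2.98, adjusted p = 0.0329 after scaling). The size of this fold depends on the 0.1 TPM added to the 2 libraries at 0. GDF5 and GDF15, at means of 2.43 and 1.22 TPM over all libraries, did not pass in any comparison. The call of GDF11 in uninjured inhibitor against uninjured cords was lost without uninjured inhibitor replicate 5, 6 or 7 or uninjured replicate 1 or 5 (adjusted p 0.0563 to 0.137). GDF10 lost its call in uninjured inhibitor against uninjured cords without uninjured inhibitor replicate 5 or 7 or uninjured replicate 1 (adjusted p 0.0554 to 0.0894). The call of GDF11 in 4 dpi inhibitor against uninjured cords was lost without 4 dpi inhibitor replicate 6 or 7 or uninjured replicate 1 (adjusted p 0.0589 to 0.0891). GDF6 lost its scaled call in uninjured inhibitor against uninjured cords without uninjured inhibitor replicate 5 or 7 or uninjured replicate 1 or 5 or the unnumbered uninjured library (adjusted p 0.0516 to 0.12). For GDF11 the scaled call in 4 dpi inhibitor against uninjured cords was lost without 4 dpi inhibitor replicate 5, 6 or 7 or uninjured inhibitor replicate 5 or uninjured replicate 1 or 5 (adjusted p 0.0528 to 0.146).

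Of the 3 TGF-β ligands, TGFB2 and TGFB3 fell in uninjured inhibitor cords as deposited, TGFB2 also after scaling. Of all genes, 51.1% fell there as deposited and 17.8% after scaling. TGFB1, the isoform most tied to wounds and immune cells, had 38.6, 42.4 and 43.4 TPM in 4 dpi inhibitor libraries and 26.3, 29.8 and 25.6 TPM in uninjured inhibitor libraries. TGFB1 had 91.7, 31.3 and 61.5 TPM in 4 dpi control libraries and 39.7, 41.4 and 15.3 TPM in uninjured libraries. The 4 dpi inhibitor libraries all lay above the uninjured inhibitor libraries, and both overlapped the wider uninjured range. With all libraries and no replicate block, TGFB1 passed only after scaling and only for 4 dpi inhibitor against uninjured cords (1.18, adjusted p = 0.0275, against 0.50, adjusted p = 0.325 as deposited). Between 4 dpi control and uninjured cords it did not pass (0.94, adjusted p = 0.456, and 0.98, adjusted p = 0.345 after scaling). It did pass there on scaled values without the unnumbered uninjured library, and on both scales with a replicate block. The granulocyte and fibroblast marker sums given above were also higher in every 4 dpi inhibitor than in every uninjured library, as deposited. So were those of microglia and macrophages (967 to 1252 against 106 to 276 TPM), of which 12 of 13 markers rose in that comparison. The fibroblast markers did not rise as a set in that comparison. Of the 11, 4 rose and 1 fell as deposited, with 5 log2 fold changes below 0, 6 above and a median of 0.03. The part of any of these cell types in the scaled rises of TGFB1, TGFBR1 and INHBA was not tested. TGFB2, which acts in neural and muscle development, had 7.07, 6.91 and 4.47 TPM at 4 dpi with the inhibitor and 1.36, 5.03 and 0.990 TPM in uninjured inhibitor cords. For TGFB2, 4 dpi control cords gave 31.7, 10.1 and 9.74 TPM and uninjured cords 21.4, 9.33 and 9.59 TPM. All uninjured inhibitor values of TGFB2 were below its uninjured values, with the maximum in 4 dpi control replicate 1. TGFB2 fell in uninjured inhibitor cords against uninjured cords on both scales (log2 fold change -2.64, SE 0.61, adjusted p = 0.00465, and -1.72, adjusted p = 0.0174 after scaling). At 4 dpi with the inhibitor all deposited values of TGFB2 lay below all uninjured values without passing (-1.03, adjusted p = 0.179), and the scaled ranges overlapped. TGFB3 had 0.880, 0.593 and 0.323 TPM in the 4 dpi inhibitor group and 0.480, 0.597 and 0.146 TPM in the uninjured inhibitor group. The TGFB3 values were 4.85, 0.678 and 0.607 TPM in 4 dpi controls and 4.24, 3.49 and 0.885 TPM in uninjured cords. As deposited, all uninjured inhibitor values of TGFB3 were below its uninjured values, with the maximum in 4 dpi control replicate 1. The scaled TGFB3 ranges overlapped. TGFB3 fell in uninjured inhibitor cords as deposited (log2 fold change -2.42, SE 0.88, adjusted p = 0.0324) but not after scaling (-1.62, adjusted p = 0.117). The call of TGFB3 in uninjured inhibitor against uninjured cords was lost without uninjured inhibitor replicate 5 or 7 or uninjured replicate 1 or the unnumbered uninjured library (adjusted p 0.0613 to 0.112). TGFB2 lost its scaled call in uninjured inhibitor against uninjured cords without uninjured inhibitor replicate 5 or 7 or uninjured replicate 1 (adjusted p 0.0547 to 0.0744). For TGFB1 the scaled call in 4 dpi inhibitor against uninjured cords was lost without 4 dpi inhibitor replicate 5, 6 or 7 or uninjured replicate 1 or 5 (adjusted p 0.0553 to 0.0964).

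INHBB and INHBA encode the β subunits that form activin B and activin A. INHBB had 3.86, 3.12 and 2.69 TPM in 4 dpi inhibitor libraries and 1.97, 1.80 and 1.15 TPM in uninjured inhibitor libraries. INHBB had 6.86, 5.95 and 3.91 TPM in 4 dpi control libraries and 12.8, 4.97 and 4.88 TPM in uninjured libraries. Its uninjured inhibitor values lay below those of every other library. INHBB fell against uninjured cords on both scales (log2 fold change -2.02, SE 0.44, adjusted p = 0.0037, and -1.101, adjusted p = 0.024 after scaling). INHBA had 4.52, 2.56 and 2.44 TPM at 4 dpi with the inhibitor and 0.242, 0.516 and 0 TPM in uninjured inhibitor cords. For INHBA, 4 dpi control cords gave 7.15, 2.35 and 1.84 TPM and uninjured cords 0.916, 0.372 and 1.91 TPM. All 4 dpi inhibitor values lay above all values of uninjured inhibitor and uninjured libraries and within the 4 dpi control range. After scaling INHBA rose in 4 dpi inhibitor against uninjured cords (2.29, adjusted p = 0.0453, and 1.67, adjusted p = 0.108 as deposited). Against uninjured inhibitor cords it had the largest log2 fold change of any member at 4 dpi, 3.51, just short of the test (adjusted p = 0.067, and 0.0513 after scaling). That fold depends on the 0.1 TPM added, because 1 library was at 0. INHBB lost its scaled call in uninjured inhibitor against uninjured cords without uninjured inhibitor replicate 7 or uninjured replicate 1 (adjusted p 0.082 to 0.0905). For INHBA the scaled call in 4 dpi inhibitor against uninjured cords was lost without 4 dpi inhibitor replicate 5, 6 or 7 or uninjured inhibitor replicate 5 or 4 dpi control replicate 5 or 6 or uninjured replicate 1 or the unnumbered uninjured library (adjusted p 0.0567 to 0.15).

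Among type I receptors, ACVR1B, ACVRL1 and BMPR1B fell in uninjured inhibitor cords as deposited, and ACVR1 rose there after scaling. In that comparison 51.1% of all genes fell as deposited and 19.4% rose after scaling. ACVR1, a type I receptor for BMPs, had 48.6, 58.0 and 52.2 TPM in 4 dpi inhibitor libraries and 42.6, 46.3 and 32.5 TPM in uninjured inhibitor libraries. ACVR1 had 46.9, 50.5 and 48.6 TPM in 4 dpi control libraries and 54.5, 24.5 and 40.2 TPM in uninjured libraries. The deposited values of the 3 other groups overlapped those of uninjured cords. After scaling ACVR1 rose against uninjured cords in 4 dpi inhibitor (1.16, adjusted p = 0.006) and uninjured inhibitor cords (1.03, adjusted p = 0.00807). As deposited the log2 fold changes were 0.48 and 0.09 (adjusted p = 0.162 and 0.796). ACVR1B, the type I receptor for activins, had 14.8, 15.6 and 14.4 TPM at 4 dpi with the inhibitor and 9.48, 14.3 and 10.4 TPM in uninjured inhibitor cords. For ACVR1B, 4 dpi control cords gave 42.7, 21.6 and 29.6 TPM and uninjured cords 57.3, 40.6 and 24.4 TPM. Every one of the 6 inhibitor libraries lay below each of the 6 others. ACVR1B fell against uninjured cords in 4 dpi inhibitor cords (log2 fold change -1.36, SE 0.34, adjusted p = 0.00968, and -0.68, adjusted p = 0.0548 after scaling). In uninjured inhibitor cords it fell on both scales (log2 fold change -1.77, SE 0.34, adjusted p = 0.00239, and -0.82, adjusted p = 0.0221 after scaling). The ratio of ACVR1 to ACVR1B within a library does not depend on scaling, and was picked after the values were seen. It was 3.27, 3.73 and 3.63 in 4 dpi inhibitor and 4.49, 3.24 and 3.12 in uninjured inhibitor libraries. In 4 dpi control libraries the ratio was 1.097, 2.34 and 1.64, and in uninjured libraries it was 0.950, 0.603 and 1.65.

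TGFBR1 had 306, 337 and 292 TPM in 4 dpi inhibitor cords and 200.5, 223 and 153 TPM in uninjured inhibitor cords. Values of TGFBR1 were 309.6, 366 and 344 TPM in 4 dpi control cords and 331, 148 and 280.2 TPM in uninjured cords. Its 4 dpi inhibitor values all lay above its uninjured inhibitor values and overlapped both groups without the inhibitor. TGFBR1 rose in 4 dpi inhibitor against uninjured cords after scaling (1.06, adjusted p = 0.0144, and 0.38, adjusted p = 0.258 as deposited). ACVRL1, a type I receptor best known from blood vessels, had 5.97, 5.75 and 3.95 TPM in the 4 dpi inhibitor group and 0.905, 3.65 and 0.458 TPM in the uninjured inhibitor group. The ACVRL1 values were 21.7, 7.18 and 8.78 TPM in 4 dpi controls and 13.3, 3.40 and 5.40 TPM in uninjured cords. ACVRL1 ranges of uninjured inhibitor and uninjured cords overlapped, and 4 dpi control replicate 1 was highest. ACVRL1 fell in uninjured inhibitor cords as deposited (log2 fold change -2.31, SE 0.69, adjusted p = 0.014, and -1.42, adjusted p = 0.0656 after scaling). Endothelial markers (8 of 8 listed genes, none at 0) summed to 23.0 to 29.0 TPM in uninjured inhibitor and 29.0 to 103 TPM in uninjured libraries, and their part in the ACVRL1 result was not tested. BMPR1B, a type I receptor for BMPs, had 0.881, 0.424 and 0.505 TPM at 4 dpi with the inhibitor and 0, 0.962 and 0 TPM in uninjured inhibitor cords. For BMPR1B, 4 dpi control cords gave 4.50, 1.21 and 1.27 TPM and uninjured cords 2.46, 0.770 and 1.58 TPM. BMPR1B ranges of uninjured inhibitor and uninjured cords overlapped, and 4 dpi control replicate 1 was highest. BMPR1B fell in uninjured inhibitor cords as deposited only, with 2 libraries at 0 (-2.82, adjusted p = 0.0251, and -2.32, adjusted p = 0.0717 after scaling). The call of ACVRL1 in uninjured inhibitor against uninjured cords was lost without uninjured inhibitor replicate 7 or uninjured replicate 1 (adjusted p 0.0562 to 0.062). BMPR1B lost its call in uninjured inhibitor against uninjured cords without uninjured inhibitor replicate 5 or 7 or uninjured replicate 1 or 5 (adjusted p 0.0556 to 0.0951). For ACVR1B the scaled call in uninjured inhibitor against uninjured cords was lost without uninjured inhibitor replicate 5 or 7 or uninjured replicate 1 or the unnumbered uninjured library (adjusted p 0.0549 to 0.0896). TGFBR1 lost its scaled call in 4 dpi inhibitor against uninjured cords without 4 dpi inhibitor replicate 5 or 7 (adjusted p 0.0505 to 0.0515).

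Of the 4 type II receptors, BMPR2, ACVR2B and ACVR2A fell in uninjured inhibitor cords as deposited, BMPR2 by the most. Of all genes, 51.1% fell there as deposited and 17.8% after scaling. BMPR2, a type II receptor for BMPs, had 6.66, 5.16 and 4.28 TPM in the 4 dpi inhibitor group and 1.60, 3.34 and 0.761 TPM in the uninjured inhibitor group. The BMPR2 values were 26.9, 5.90 and 9.34 TPM in 4 dpi controls and 44.7, 9.31 and 10.5 TPM in uninjured cords. The uninjured inhibitor values lay below those of every other library. BMPR2 fell against uninjured cords on both scales and in every fit that left out 1 library (log2 fold change -3.26, SE 0.69, adjusted p = 0.00338, and -2.35, adjusted p = 0.00787 after scaling). At 4 dpi with the inhibitor it also lay below all uninjured values, but the test was not passed (-1.61, adjusted p = 0.0768). ACVR2B, a type II receptor for activins and GDF11, had 12.5, 10.7 and 11.8 TPM in 4 dpi inhibitor libraries and 4.61, 11.8 and 2.89 TPM in uninjured inhibitor libraries. ACVR2B had 25.8, 13.3 and 13.97 TPM in 4 dpi control libraries and 46.0, 15.99 and 23.3 TPM in uninjured libraries. As deposited, ACVR2B in uninjured inhibitor cords lay wholly below uninjured cords, and uninjured replicate 1 was highest. The scaled ACVR2B ranges of these groups overlapped. ACVR2B fell in uninjured inhibitor cords on both scales (log2 fold change -2.23, SE 0.50, adjusted p = 0.00412, and -1.30, adjusted p = 0.0225 after scaling). ACVR2A, its close relative and the most abundant type II receptor, had 21.5, 22.9 and 21.5 TPM in 4 dpi inhibitor cords and 15.1, 22.5 and 11.002 TPM in uninjured inhibitor cords. Values of ACVR2A were 30.6, 27.7 and 25.3 TPM in 4 dpi control cords and 43.5, 23.7 and 29.2 TPM in uninjured cords. As deposited, ACVR2A in uninjured inhibitor cords lay wholly below uninjured cords, and uninjured replicate 1 was highest. The scaled ACVR2A ranges of these groups overlapped. ACVR2A fell in uninjured inhibitor cords as deposited only (-0.998, adjusted p = 0.0136, and -0.05, adjusted p = 0.869 after scaling). Uninjured inhibitor replicate 6 stood within the 4 dpi inhibitor range for both ACVR2 genes, unlike replicates 5 and 7. TGFBR2, the type II receptor for TGF-β, averaged 9.06 ± 0.571 TPM in 4 dpi inhibitor, 7.71 ± 1.58 TPM in uninjured inhibitor, 13.2 ± 3.41 TPM in 4 dpi control and 11.1 ± 2.71 TPM in uninjured libraries (SD, n = 3 each) and did not pass in any comparison. TGFBR3 (betaglycan), the co-receptor that presents TGF-β2, had 4.62, 3.90 and 4.08 TPM in 4 dpi inhibitor libraries and 1.25, 2.55 and 0.236 TPM in uninjured inhibitor libraries. TGFBR3 had 13.5, 2.76 and 4.73 TPM in 4 dpi control libraries and 7.85, 3.43 and 6.58 TPM in uninjured libraries. As deposited, TGFBR3 in uninjured inhibitor cords lay wholly below uninjured cords, and 4 dpi control replicate 1 was highest. The scaled TGFBR3 ranges of uninjured inhibitor and uninjured cords overlapped. TGFBR3 fell in uninjured inhibitor cords as deposited (-2.43, adjusted p = 0.0136, and -1.56, adjusted p = 0.0701 after scaling). ACVR2A lost its call in uninjured inhibitor against uninjured cords without uninjured inhibitor replicate 7 or uninjured replicate 1 (adjusted p 0.052 to 0.0627). The call of TGFBR3 in uninjured inhibitor against uninjured cords was lost without uninjured inhibitor replicate 7 (adjusted p = 0.0558). ACVR2B lost its scaled call in uninjured inhibitor against uninjured cords without uninjured inhibitor replicate 5 or 7 or uninjured replicate 1 (adjusted p 0.0744 to 0.0956).

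SMAD5 and SMAD1, which carry the same BMP signal and are close paralogs, changed in opposite directions in 4 dpi inhibitor against uninjured cords as deposited. SMAD5 had 66.9, 60.4 and 53.7 TPM at 4 dpi with the inhibitor and 40.1, 53.8 and 31.8 TPM in uninjured inhibitor cords. For SMAD5, 4 dpi control cords gave 40.2, 52.4 and 49.5 TPM and uninjured cords 31.2, 18.4 and 38.4 TPM. Every 4 dpi inhibitor value lay above every 4 dpi control and uninjured value. SMAD5 rose in 4 dpi inhibitor against uninjured cords (log2 fold change 1.097, SE 0.29, adjusted p = 0.0125, and 1.77, adjusted p = 0.00338 after scaling), the 1 rise of a member on the deposited values. This call held on both scales in every fit that left out 1 library. In uninjured inhibitor cords it rose after scaling (1.49, adjusted p = 0.00495), also in every such fit, and not as deposited (0.54, adjusted p = 0.118). SMAD1 had 16.8, 24.2 and 16.1 TPM in 4 dpi inhibitor cords and 8.39, 11.2 and 3.95 TPM in uninjured inhibitor cords. Values of SMAD1 were 89.7, 34.3 and 47.3 TPM in 4 dpi control cords and 87.6, 31.3 and 35.0 TPM in uninjured cords. All 6 inhibitor libraries lay below all 6 others, and the uninjured inhibitor libraries below the 4 dpi inhibitor ones. SMAD1 fell in uninjured inhibitor against uninjured cords on both scales and in every fit that left out 1 library (log2 fold change -2.65, SE 0.48, adjusted p = 0.0021, and -1.71, adjusted p = 0.00424 after scaling). In 4 dpi inhibitor cords it fell as deposited (log2 fold change -1.29, SE 0.48, adjusted p = 0.0486) and not after scaling (-0.61, adjusted p = 0.207). The call of SMAD1 in 4 dpi inhibitor against uninjured cords was lost without 4 dpi inhibitor replicate 5, 6 or 7 or uninjured inhibitor replicate 5 or 4 dpi control replicate 6 or uninjured replicate 1 (adjusted p 0.06 to 0.189). The ratio of SMAD5 to SMAD1 within a library is the same under any scaling, and was also picked after the values were seen. It was 3.99, 2.49 and 3.33 in 4 dpi inhibitor and 4.78, 4.81 and 8.06 in uninjured inhibitor libraries. Without the inhibitor it was 0.449, 1.53 and 1.05 in 4 dpi control and 0.356, 0.588 and 1.097 in uninjured libraries. The lowest ratio with the inhibitor, 2.49, was above the highest without it, 1.53. Contigs were assigned by their best human match, so a contig of one paralog assigned to the other would move both values.

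**Figure D3:**
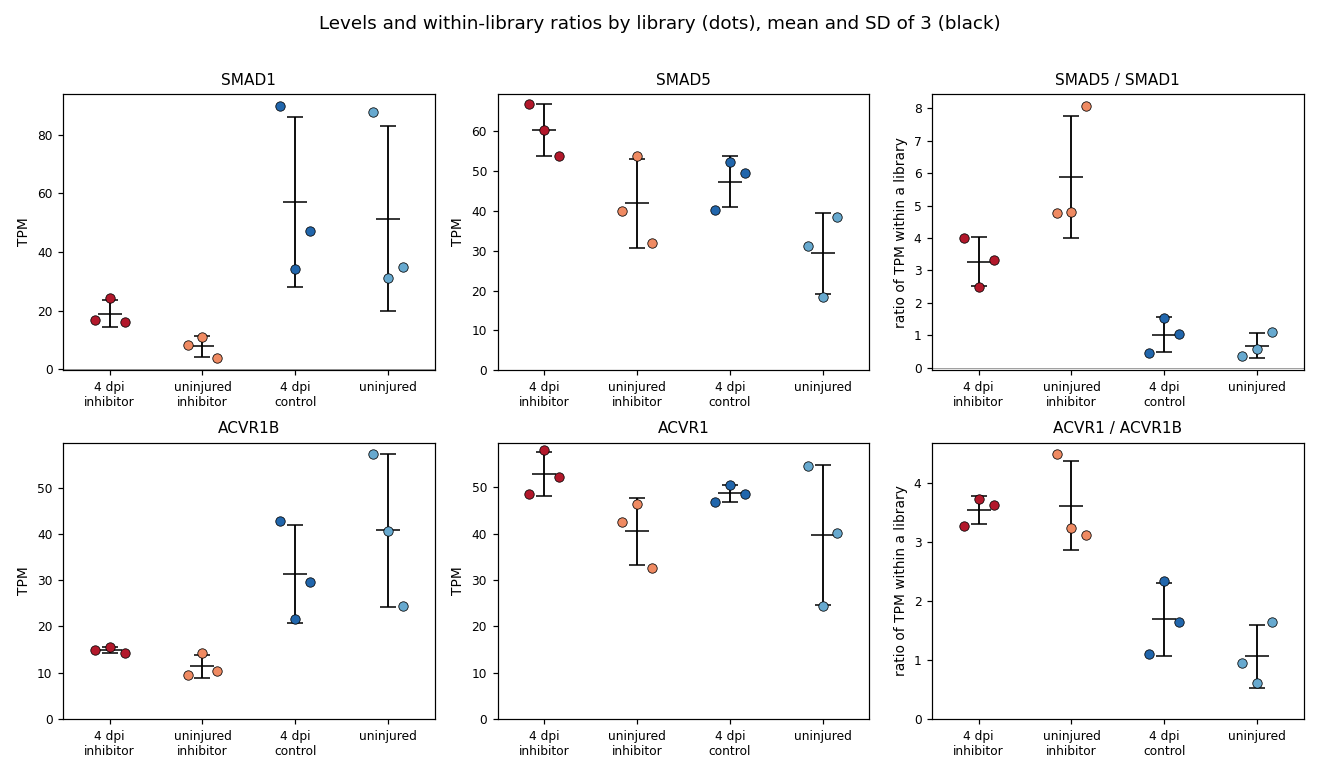
TPM of SMAD1, SMAD5, ACVR1B and ACVR1 and the within-library ratios SMAD5/SMAD1 and ACVR1/ACVR1B in each library (dots), with the mean and SD of 3 libraries per group in black. The 6 inhibitor libraries, left, have SMAD5/SMAD1 ratios of 2.49 to 8.06, above the 0.356 to 1.53 of the 6 libraries without the inhibitor.

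SMAD9, the least abundant SMAD of the BMP arm, had 13.1, 12.7 and 14.3 TPM in 4 dpi inhibitor libraries and 8.71, 12.3 and 7.33 TPM in uninjured inhibitor libraries. SMAD9 had 22.4, 15.9 and 19.0 TPM in 4 dpi control libraries and 30.3, 16.99 and 18.3 TPM in uninjured libraries. As deposited, all uninjured inhibitor values of SMAD9 were below its uninjured values, with the maximum in uninjured replicate 1. The scaled SMAD9 ranges of these groups overlapped. SMAD9 fell in uninjured inhibitor cords as deposited (log2 fold change -1.19, SE 0.29, adjusted p = 0.00618) but not after scaling (-0.24, adjusted p = 0.374). SMAD2, which carries the TGF-β and activin signal, had 22.7, 27.5 and 23.4 TPM in 4 dpi inhibitor cords and 16.5, 22.3 and 18.6 TPM in uninjured inhibitor cords. Values of SMAD2 were 44.9, 32.7 and 39.9 TPM in 4 dpi control cords and 56.2, 28.3 and 29.6 TPM in uninjured cords. As deposited, all uninjured inhibitor values of SMAD2 were below its uninjured values, with the maximum in uninjured replicate 1. The scaled SMAD2 ranges of these groups overlapped. SMAD3, its partner in that arm, had 11.01, 11.05 and 12.6 TPM in 4 dpi inhibitor libraries and 7.21, 9.61 and 6.26 TPM in uninjured inhibitor libraries. SMAD3 had 15.8, 13.4 and 16.1 TPM in 4 dpi control libraries and 14.9, 13.4 and 9.002 TPM in uninjured libraries. The SMAD3 values of uninjured inhibitor and uninjured cords overlapped, with the maximum in 4 dpi control replicate 6. Both fell in uninjured inhibitor cords as deposited (-0.92, adjusted p = 0.0155 for SMAD2, and -0.68, adjusted p = 0.0498 for SMAD3) and turned direction after scaling (0.02, adjusted p = 0.938 for SMAD2, and 0.26, adjusted p = 0.425 for SMAD3). SMAD4, the common partner, had 19.3, 25.0 and 18.9 TPM in 4 dpi inhibitor cords and 19.5, 20.1 and 16.4 TPM in uninjured inhibitor cords. Values of SMAD4 were 33.7, 32.6 and 29.5 TPM in 4 dpi control cords and 40.0, 19.9 and 29.5 TPM in uninjured cords. The SMAD4 values of uninjured inhibitor and uninjured cords overlapped, with the maximum in uninjured replicate 1. It did not pass in any comparison (uninjured inhibitor against uninjured, -0.62, adjusted p = 0.0605, and 0.32, adjusted p = 0.245 after scaling), but was called lower there without the unnumbered uninjured library and with a replicate block. SMAD2 lost its call in uninjured inhibitor against uninjured cords without uninjured inhibitor replicate 5 or uninjured replicate 1 (adjusted p 0.0565 to 0.0615). The call of SMAD3 in uninjured inhibitor against uninjured cords was lost without 4 dpi inhibitor replicate 5, 6 or 7 or uninjured inhibitor replicate 5 or 7 or 4 dpi control replicate 1, 5 or 6 or uninjured replicate 1 or the unnumbered uninjured library (adjusted p 0.05 to 0.16).

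The 4 ID genes, direct BMP targets that encode helix-loop-helix proteins without a DNA-binding region, were compared with uninjured cords. All 4 fell in 4 dpi inhibitor cords as deposited (against 31.2% of all genes), 2 of them (ID3 and ID4) also after scaling (against 12%). In uninjured inhibitor cords 3 fell (against 51.1% of all genes), 1 of them (ID3) also after scaling (against 17.8%). ID3 had 35.7, 36.3 and 32.9 TPM in 4 dpi inhibitor cords and 28.2, 33.1 and 31.9 TPM in uninjured inhibitor cords. Values of ID3 were 121, 54.6 and 88.6 TPM in 4 dpi control cords and 122, 164 and 81.0 TPM in uninjured cords. The 6 inhibitor libraries lay within 28.2 to 36.3 TPM, below all 6 others. They also did so after scaling (up to 49.2 TPM, with the others from 50.4 TPM). ID3 fell against uninjured cords in 4 dpi inhibitor cords (log2 fold change -1.75, SE 0.30, adjusted p = 0.00254, and -1.07, adjusted p = 0.0191 after scaling). It also fell in uninjured inhibitor cords (log2 fold change -1.92, SE 0.30, adjusted p = 0.00182, and -0.97, adjusted p = 0.0245 after scaling). It was the 1 member called between 4 dpi inhibitor and 4 dpi control cords (log2 fold change -1.26, SE 0.30, adjusted p = 0.0491). The test was not passed after scaling (-0.62, adjusted p = 0.293). The call of ID3 in 4 dpi inhibitor against 4 dpi control cords was lost without 4 dpi inhibitor replicate 5, 6 or 7 or uninjured inhibitor replicate 5, 6 or 7 or 4 dpi control replicate 1 or 6 or uninjured replicate 5 (adjusted p 0.0516 to 0.21).

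ID1 had 40.2, 51.7 and 40.4 TPM in 4 dpi inhibitor libraries and 97.1, 62.2 and 68.0 TPM in uninjured inhibitor libraries. ID1 had 70.8, 80.2 and 65.8 TPM in 4 dpi control libraries and 72.2, 251 and 97.3 TPM in uninjured libraries. Its 4 dpi inhibitor values were the lowest of all libraries as deposited, and the unnumbered uninjured library, at 251 TPM, was far above the rest. After scaling the 4 dpi inhibitor values were 50.1 to 55.5 TPM, above 4 dpi control replicate 1 (42.4 TPM) and uninjured replicate 1 (40.7 TPM). ID1 fell in 4 dpi inhibitor against uninjured cords as deposited (log2 fold change -1.46, SE 0.37, adjusted p = 0.011) but not after scaling (-0.78, adjusted p = 0.25). In uninjured inhibitor cords it did not pass and its direction turned with scaling (-0.70, adjusted p = 0.118, and 0.25, adjusted p = 0.71 after scaling). Without uninjured replicate 1 it was called lower there as deposited. ID2 had 27.5, 37.9 and 28.9 TPM at 4 dpi with the inhibitor and 25.1, 30.1 and 35.3 TPM in uninjured inhibitor cords. For ID2, 4 dpi control cords gave 67.8, 51.5 and 62.6 TPM and uninjured cords 97.0, 80.5 and 51.9 TPM. All 6 inhibitor libraries were below the 6 others as deposited, but not after scaling (up to 54.4 TPM, with the others from 40.6 TPM). ID2 fell against uninjured cords in 4 dpi inhibitor (-1.25, adjusted p = 0.00507) and uninjured inhibitor cords (-1.31, adjusted p = 0.00289) as deposited. It did not pass after scaling (-0.57, adjusted p = 0.0958, and -0.36, adjusted p = 0.251). ID4 had 8.14, 7.74 and 5.37 TPM in 4 dpi inhibitor cords and 5.65, 9.72 and 9.22 TPM in uninjured inhibitor cords. Values of ID4 were 23.3, 7.26 and 9.87 TPM in 4 dpi control cords and 56.9, 16.8 and 18.8 TPM in uninjured cords. All uninjured inhibitor values of ID4 were below its uninjured values, with the maximum in uninjured replicate 1. ID4 fell against uninjured cords at 4 dpi with the inhibitor on both scales (-1.90, adjusted p = 0.0131, and -1.22, adjusted p = 0.0249 after scaling). Without injury it fell as deposited (-1.70, adjusted p = 0.0139, and -0.76, adjusted p = 0.113 after scaling). The 4 ID genes together summed to 112, 134 and 108 TPM in 4 dpi inhibitor and 156, 135 and 144 TPM in uninjured inhibitor libraries. Their sums were 283, 194 and 227 TPM in 4 dpi control and 348, 513 and 249 TPM in uninjured libraries. After scaling, the 4 dpi inhibitor sums were 139, 143 and 139 TPM, those of uninjured inhibitor 237, 175 and 223, of 4 dpi control 170, 179 and 187, and of uninjured libraries 196, 463 and 205 TPM. On the scaled sums the 4 dpi inhibitor libraries stayed below all others, whereas the uninjured inhibitor libraries overlapped the uninjured ones. ID4 lost its call in 4 dpi inhibitor against uninjured cords without 4 dpi inhibitor replicate 7 (adjusted p = 0.0552). The call of ID4 in uninjured inhibitor against uninjured cords was lost without uninjured inhibitor replicate 5 or uninjured replicate 1 (adjusted p 0.0543 to 0.0577). ID3 lost its scaled call in 4 dpi inhibitor against uninjured cords without 4 dpi inhibitor replicate 6 or 7 (adjusted p 0.0584 to 0.0629). For ID4 the scaled call in 4 dpi inhibitor against uninjured cords was lost without 4 dpi inhibitor replicate 6 or 7 or uninjured replicate 1 (adjusted p 0.0668 to 0.0938). ID3 lost its scaled call in uninjured inhibitor against uninjured cords without uninjured inhibitor replicate 5, 6 or 7 or the unnumbered uninjured library (adjusted p 0.0502 to 0.0789).

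SMAD6 and SMAD7, the inhibitory SMADs that limit the pathway and are themselves induced by it, fell in both inhibitor groups as deposited. SMAD6 also fell in both after scaling. Beside these calls, 31.2% of all genes fell in 4 dpi inhibitor cords as deposited (12% after scaling). In uninjured inhibitor cords 51.1% of all genes fell (17.8% after scaling). SMAD6, which acts mainly on the BMP arm, had 4.39, 3.83 and 4.12 TPM at 4 dpi with the inhibitor and 3.501, 4.23 and 4.36 TPM in uninjured inhibitor cords. For SMAD6, 4 dpi control cords gave 15.6, 6.22 and 8.42 TPM and uninjured cords 17.02, 19.0 and 10.9 TPM. All 6 inhibitor libraries lay below all 6 others as deposited, but not after scaling (up to 6.72 TPM, with the others from 5.75 TPM). SMAD6 fell against uninjured cords in 4 dpi inhibitor cords (log2 fold change -1.86, SE 0.36, adjusted p = 0.00362, and -1.19, adjusted p = 0.0122 after scaling), on both scales whichever library was left out (adjusted p up to 0.05, rounded, on scaled values). With a replicate block SMAD6 lost that scaled call. It also fell in uninjured inhibitor cords (log2 fold change -1.90, SE 0.36, adjusted p = 0.00233, and -0.96, adjusted p = 0.0259 after scaling). SMAD6 lost its scaled call in uninjured inhibitor against uninjured cords without uninjured inhibitor replicate 5 or 6 or the unnumbered uninjured library (adjusted p 0.0526 to 0.0889). SMAD7, which limits both arms, had 11.6, 10.1 and 12.8 TPM in the 4 dpi inhibitor group and 10.8, 10.2 and 7.18 TPM in the uninjured inhibitor group. The SMAD7 values were 12.5, 13.3 and 11.6 TPM in 4 dpi controls and 28.1, 26.6 and 20.2 TPM in uninjured cords. The 3 uninjured libraries lay above the 9 others as deposited, and the 4 dpi inhibitor range overlapped those of uninjured inhibitor and 4 dpi control cords. After scaling, uninjured replicate 1 at 15.9 TPM was below 4 dpi inhibitor replicate 7 and uninjured inhibitor replicate 5 (both at 16.5 TPM). SMAD7 fell as deposited in 4 dpi inhibitor (log2 fold change -1.103, SE 0.25, adjusted p = 0.00736) and uninjured inhibitor cords (log2 fold change -1.41, SE 0.25, adjusted p = 0.0021). It passed in neither after scaling (-0.43, adjusted p = 0.262, and -0.47, adjusted p = 0.195), nor in 4 dpi control cords (-0.98, adjusted p = 0.119, and -0.94, adjusted p = 0.205 after scaling).

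**Figure D4:**
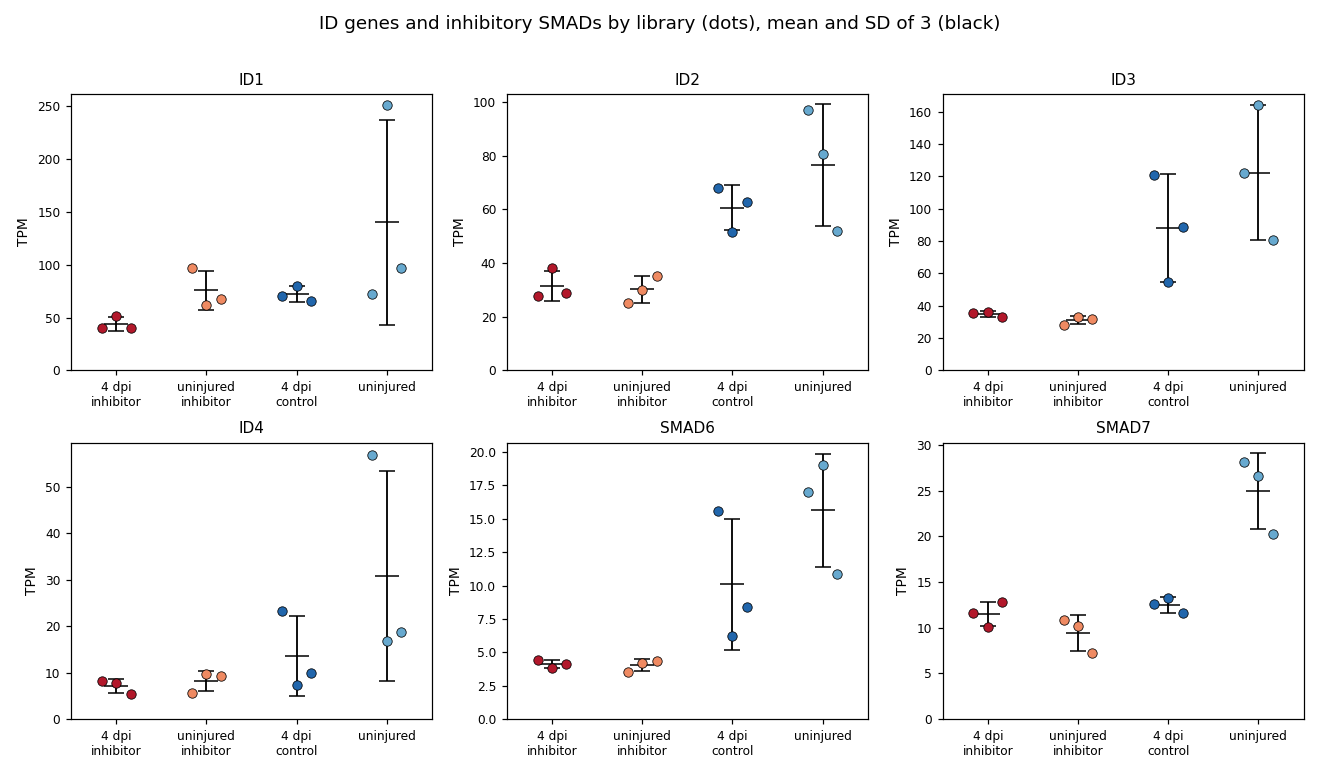
TPM of ID1, ID2, ID3, ID4, SMAD6 and SMAD7 in each library (dots), with the mean and SD of 3 libraries per group in black. For ID2, ID3 and SMAD6 the 6 inhibitor libraries, left, lie below the 6 libraries without the inhibitor as deposited. After scaling this remained for ID3 and was lost for ID2 and SMAD6. For SMAD7 uninjured cords at 20.2 to 28.1 TPM lie above the 9 other libraries as deposited, which was lost after scaling.

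Latent TGF-β binding proteins are a matrix family, of which some tether the inactive ligand. LTBP2, LTBP3 and LTBP4 fell in uninjured inhibitor cords as deposited, where 51.1% of all genes fell (17.8% after scaling). LTBP4 had 1.15, 0.777 and 0.791 TPM in 4 dpi inhibitor libraries and 0.343, 1.02 and 0.0223 TPM in uninjured inhibitor libraries. LTBP4 had 9.76, 1.098 and 1.62 TPM in 4 dpi control libraries and 9.24, 6.85 and 3.29 TPM in uninjured libraries. LTBP4 fell in uninjured inhibitor cords (-3.94, adjusted p = 0.00433, and -3.21, adjusted p = 0.0122 after scaling). At 4 dpi LTBP4 also fell as deposited (-2.61, adjusted p = 0.0348, and -1.96, adjusted p = 0.0958 after scaling). LTBP2, a matrix protein of the family, had 0.466, 0.897 and 0.171 TPM at 4 dpi with the inhibitor and 0.169, 0.452 and 0 TPM in uninjured inhibitor cords. For LTBP2, 4 dpi control cords gave 4.90, 1.23 and 0.536 TPM and uninjured cords 3.05, 3.52 and 2.14 TPM. LTBP2 fell without injury (-3.58, adjusted p = 0.00654, and -2.94, adjusted p = 0.02 after scaling). At 4 dpi LTBP2 fell as deposited (-2.46, adjusted p = 0.0444, and -1.86, adjusted p = 0.12 after scaling). Inhibitor libraries of either group lay below all uninjured libraries for both genes. The folds depend on the 0.1 TPM added, since some of these values were at or near 0. With a replicate block LTBP2 and LTBP4 lost their calls in uninjured inhibitor against uninjured cords on both scales. LTBP3, the most abundant of the family, had 6.36, 7.34 and 6.23 TPM in 4 dpi inhibitor cords and 5.57, 7.80 and 6.05 TPM in uninjured inhibitor cords. Values of LTBP3 were 35.8, 8.79 and 12.9 TPM in 4 dpi control cords and 24.9, 15.9 and 14.48 TPM in uninjured cords. All uninjured inhibitor values of LTBP3 were below its uninjured values, with the maximum in 4 dpi control replicate 1. LTBP3 fell as deposited in uninjured inhibitor (-1.47, adjusted p = 0.014) and 4 dpi inhibitor cords (-1.42, adjusted p = 0.0228). Neither passed after scaling (-0.53, adjusted p = 0.188, and -0.75, adjusted p = 0.0867). LTBP1, at a mean of 10.99 TPM, did not pass in any comparison. LTBP3 lost its call in 4 dpi inhibitor against uninjured cords without 4 dpi inhibitor replicate 5 or 7 or uninjured replicate 1 (adjusted p 0.0669 to 0.0766). The call of LTBP4 in 4 dpi inhibitor against uninjured cords was lost without 4 dpi inhibitor replicate 5, 6 or 7 or uninjured replicate 1 or the unnumbered uninjured library (adjusted p 0.0633 to 0.103). LTBP2 lost its call in 4 dpi inhibitor against uninjured cords without 4 dpi inhibitor replicate 5 or 7 or uninjured inhibitor replicate 5 or 4 dpi control replicate 5 or uninjured replicate 1 or 5 or the unnumbered uninjured library (adjusted p 0.0559 to 0.157). For LTBP2 the scaled call in uninjured inhibitor against uninjured cords was lost without uninjured inhibitor replicate 7 or the unnumbered uninjured library (adjusted p 0.0526 to 0.0756).

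Secreted antagonists fell in uninjured inhibitor cords for NOG and GREM1, where 51.1% of all genes fell as deposited (17.8% after scaling). NOG (noggin), which binds BMPs, had 3.18, 3.74 and 3.03 TPM in 4 dpi inhibitor libraries and 1.63, 2.92 and 2.26 TPM in uninjured inhibitor libraries. NOG had 9.34, 2.42 and 4.73 TPM in 4 dpi control libraries and 14.4, 7.04 and 6.49 TPM in uninjured libraries. All 6 inhibitor libraries lay below all uninjured libraries. NOG fell without injury on both scales (log2 fold change -1.93, SE 0.48, adjusted p = 0.00666, and -1.01, adjusted p = 0.0362 after scaling). At 4 dpi NOG fell as deposited (-1.37, adjusted p = 0.0398, and -0.70, adjusted p = 0.138 after scaling). GREM1 (gremlin), another BMP binder, had 1.46, 0.704 and 0.335 TPM at 4 dpi with the inhibitor and 0, 0 and 0 TPM in uninjured inhibitor cords. For GREM1, 4 dpi control cords gave 4.27, 1.21 and 0 TPM and uninjured cords 3.15, 4.09 and 0.525 TPM. The GREM1 values of 4 dpi inhibitor and uninjured cords overlapped, with the maximum in 4 dpi control replicate 1. It was listed at 0 in every uninjured inhibitor library and passed against uninjured cords on both scales (adjusted p = 0.0123, and 0.0219 after scaling), with no fold given against a group at 0. FST (follistatin), which binds activins and was the most abundant antagonist, had 6.61, 6.57 and 8.40 TPM in the 4 dpi inhibitor group and 3.97, 5.03 and 4.84 TPM in the uninjured inhibitor group. The FST values were 11.03, 10.9 and 11.3 TPM in 4 dpi controls and 4.82, 7.55 and 11.99 TPM in uninjured cords. The FST values of uninjured inhibitor and uninjured cords overlapped, with the maximum in uninjured replicate 5. CHRD (chordin) averaged 3.07 ± 0.487 TPM in 4 dpi inhibitor, 2.44 ± 0.598 TPM in uninjured inhibitor, 6.85 ± 4.62 TPM in 4 dpi control and 3.72 ± 0.688 TPM in uninjured libraries (SD, n = 3 each). Neither FST nor CHRD passed in any comparison, but FST was called lower in uninjured inhibitor against uninjured cords without uninjured replicate 1. BMP1, the protease that trims procollagens and cleaves chordin, had 8.62, 11.5 and 9.78 TPM at 4 dpi with the inhibitor and 8.89, 9.46 and 10.4 TPM in uninjured inhibitor cords. For BMP1, 4 dpi control cords gave 43.1, 13.2 and 17.2 TPM and uninjured cords 33.3, 21.2 and 12.6 TPM. As deposited, BMP1 in uninjured inhibitor cords lay wholly below uninjured cords, and 4 dpi control replicate 1 was highest. The scaled BMP1 ranges of uninjured inhibitor and uninjured cords overlapped. BMP1 fell in uninjured inhibitor cords as deposited only (-1.105, adjusted p = 0.0425, and -0.16, adjusted p = 0.703 after scaling). The call of NOG in 4 dpi inhibitor against uninjured cords was lost without 4 dpi inhibitor replicate 5, 6 or 7 or 4 dpi control replicate 6 or uninjured replicate 1 (adjusted p 0.0562 to 0.138). BMP1 lost its call in uninjured inhibitor against uninjured cords without 4 dpi inhibitor replicate 5, 6 or 7 or uninjured inhibitor replicate 5, 6 or 7 or 4 dpi control replicate 6 or uninjured replicate 1 or the unnumbered uninjured library (adjusted p 0.0526 to 0.159). For NOG the scaled call in uninjured inhibitor against uninjured cords was lost without 4 dpi inhibitor replicate 5, 6 or 7 or uninjured inhibitor replicate 5 or 7 or 4 dpi control replicate 6 or uninjured replicate 1 or the unnumbered uninjured library (adjusted p 0.0517 to 0.138). GREM1 lost its scaled call in uninjured inhibitor against uninjured cords without uninjured inhibitor replicate 5 or 7 or uninjured replicate 1 or the unnumbered uninjured library (adjusted p 0.0544 to 0.0707).

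Genes outside the 50 that modulate the pathway, 49 of a list of 61 tested, were counted beside the members. For uninjured inhibitor against uninjured cords 34 fell (69.4%, against 51.1% of all genes) and 2 rose (4.08%, against 7.39%). After scaling 14 fell (28.6%, against 17.8%) and 5 rose (10.2%, against 19.4%). Their median log2 fold change there was -1.44 as deposited and -0.50 after scaling, against -1.10 and -0.17 over all genes tested. For 4 dpi inhibitor against uninjured 13 fell (26.5%, against 31.2% of all genes) and 3 rose (6.12%, against 9.39%), shares near or below those of all genes. After scaling 4 fell (8.16%, against 12%) and 5 rose (10.2%, against 16.6%). For 4 dpi control against uninjured 0 fell and 2 rose on both scales, where 0.904% of all genes were called in either direction (0.977% after scaling). LRRC32 and NRROS, the 2 that rose with injury and the control inhibitor, encode membrane proteins that hold latent TGF-β at the cell surface, NRROS mainly on microglia and macrophages in mammals. LRRC32 had 108, 137 and 131 TPM in the 4 dpi inhibitor group and 37.98, 51.7 and 32.5 TPM in the uninjured inhibitor group. The LRRC32 values were 84.6, 87.6 and 102 TPM in 4 dpi controls and 24.4, 19.6 and 35.6 TPM in uninjured cords. Both 4 dpi groups lay above both uninjured groups. LRRC32 rose in 4 dpi control (log2 fold change 1.82, SE 0.26, adjusted p = 0.00291) and 4 dpi inhibitor cords (log2 fold change 2.27, SE 0.26, adjusted p = 0.000321) against uninjured cords. It also rose in 4 dpi inhibitor against uninjured inhibitor cords (log2 fold change 1.64, SE 0.26, adjusted p = 0.0184). All 3 held after scaling (1.86, 2.95 and 1.37, adjusted p = 0.00876, 0.000123 and 0.0484). NRROS had 5.78, 13.9 and 8.60 TPM in 4 dpi inhibitor libraries and 5.75, 4.76 and 3.61 TPM in uninjured inhibitor libraries. NRROS had 18.1, 8.41 and 12.3 TPM in 4 dpi control libraries and 2.63, 0.305 and 1.88 TPM in uninjured libraries. Its uninjured values were below the 9 others. NRROS rose in 4 dpi control (3.26, adjusted p = 0.023) and 4 dpi inhibitor cords (2.78, adjusted p = 0.0063) against uninjured cords. Both held after scaling (3.27 and 3.43, adjusted p = 0.00733 and 0.00171). Both genes were also the 2 modulators that rose in uninjured inhibitor against uninjured cords, named after their values were seen. The change of LRRC32 there was 0.63, adjusted p = 0.0486 (1.58, adjusted p = 0.00349 after scaling), and the deposited call held in 2 of 12 fits that left out 1 library, those without uninjured inhibitor replicate 7 or uninjured replicate 5 (adjusted p up to 0.18 in the others). For LRRC32 with a replicate block it was 0.23, adjusted p = 0.453. The change of NRROS there was 1.86, adjusted p = 0.0226 (2.77, adjusted p = 0.00327 after scaling). The call of NRROS in uninjured inhibitor against uninjured cords was lost without uninjured inhibitor replicate 5 or the unnumbered uninjured library (adjusted p 0.0574 to 0.0728). With only the libraries compared in the fit, LRRC32 and NRROS did not pass in 4 dpi control (adjusted p = 0.118 and 0.374) or in uninjured inhibitor cords (0.137 and 0.08). The listed markers of microglia and macrophages (13 of 13, none at 0) summed to 967 to 1252 TPM in 4 dpi inhibitor, 511 to 667 in uninjured inhibitor, 769 to 1023 in 4 dpi control and 106 to 276 TPM in uninjured libraries, and their part in these values was not tested. NRROS lost its call in 4 dpi control against uninjured cords without 4 dpi control replicate 1, 5 or 6 (adjusted p 0.0532 to 0.108). The call of LRRC32 in 4 dpi inhibitor against uninjured inhibitor cords was lost without 4 dpi inhibitor replicate 5, 6 or 7 or uninjured inhibitor replicate 5 or 7 (adjusted p 0.0598 to 0.142).

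**Figure D5:**
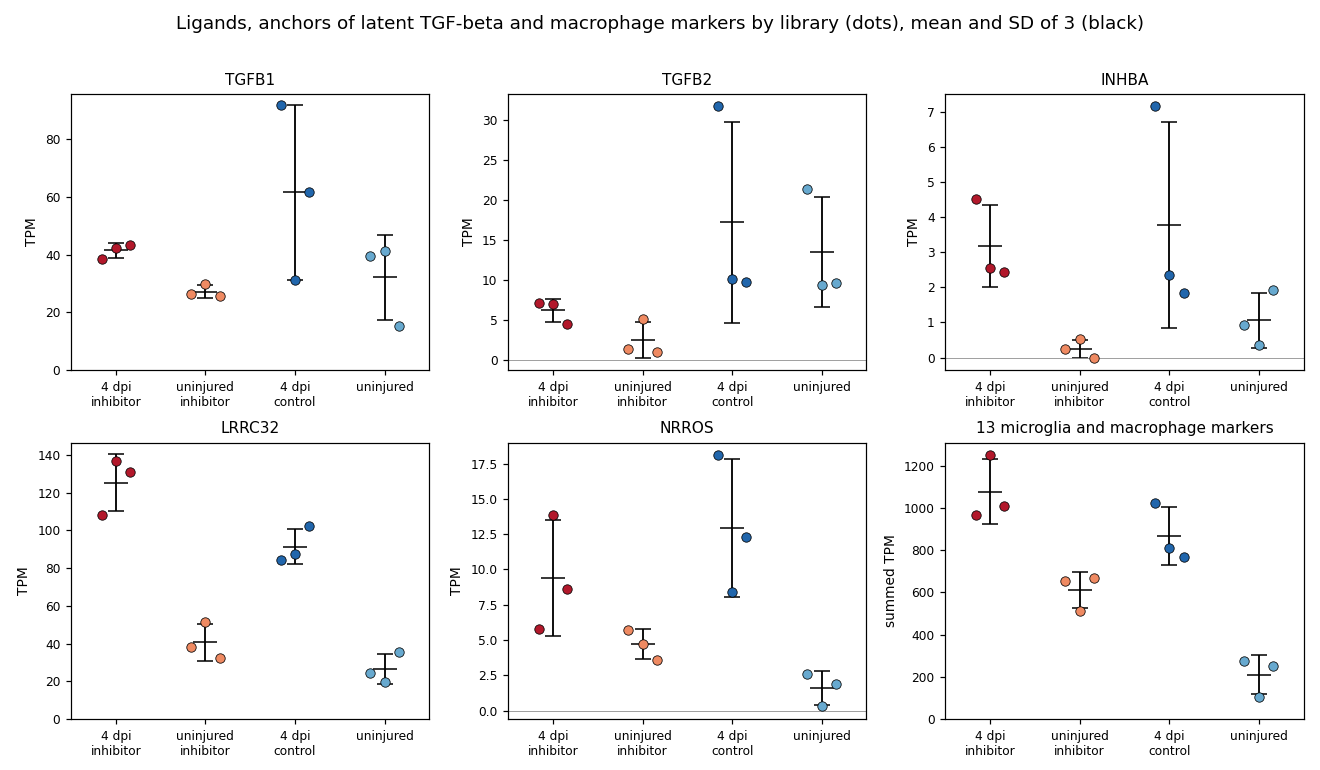
TPM of the ligand genes TGFB1, TGFB2 and INHBA, of LRRC32 and NRROS, which hold latent TGF-β at the cell surface, and the summed TPM of 13 microglia and macrophage markers in each library (dots), with the mean and SD of 3 libraries per group in black. LRRC32 lies at 84.6 to 137 TPM in both 4 dpi groups and at 19.6 to 51.7 TPM in both uninjured groups.

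Several other modulators fell. ENG (endoglin), a co-receptor of endothelium, fell in uninjured inhibitor against uninjured cords (0.823 ± 0.796 TPM in uninjured inhibitor and 20.1 ± 9.25 TPM in uninjured libraries, SD, n = 3 each). For ENG the test gave -5.07, adjusted p = 0.0022 (-4.36, adjusted p = 0.00598 after scaling), a fold set in part by the 0.1 TPM added, since uninjured inhibitor replicate 7 was listed at 0. Endothelial markers (8 of 8, none at 0) summed to 23.05 to 28.97 TPM in uninjured inhibitor and 28.98 to 102.6 TPM in uninjured libraries, and their part was not tested. Also lower there were the BMP antagonist NBL1 (-4.19, adjusted p = 0.00177, and -3.33, adjusted p = 0.00267 after scaling) and the follistatin-like FSTL1 (-4.18, adjusted p = 0.00345, and -3.24, adjusted p = 0.00986 after scaling). THBS1, which activates latent TGF-β, fell as well (-4.12, adjusted p = 0.00182, and -3.18, adjusted p = 0.00316 after scaling). FURIN, which cleaves the precursors of the ligands, fell too (-3.78, adjusted p = 0.00267, and -2.94, adjusted p = 0.00616 after scaling). In uninjured inhibitor replicates 5, 6 and 7, NBL1 had 0.291, 2.12 and 0.381 TPM and FURIN 0.464, 1.98 and 0.141 TPM. Both folds depend in part on the 0.1 TPM added. FSTL1 had 37.4, 178 and 11.2 TPM there and THBS1 2.62, 9.33 and 1.85 TPM, with replicate 6 highest for each of these genes. VWC2, a BMP antagonist of neural tissue, had 3.08, 4.18 and 3.41 TPM in 4 dpi inhibitor libraries and 14.7, 12.3 and 21.1 TPM in uninjured inhibitor libraries. VWC2 had 23.9, 7.51 and 13.6 TPM in 4 dpi control libraries and 93.4, 18.6 and 33.4 TPM in uninjured libraries. VWC2 in 4 dpi inhibitor cords lay wholly below uninjured cords, and uninjured replicate 1 was highest. VWC2 fell in 4 dpi inhibitor against uninjured cords (-3.42, adjusted p = 0.00173, and -2.75, adjusted p = 0.00176 after scaling). FKBP1A, which keeps type I receptors inactive, was the 1 modulator lower in 4 dpi inhibitor than in 4 dpi control cords, at 264 ± 41.7 against 499.7 ± 116 TPM (SD, n = 3 each; -0.91, adjusted p = 0.0491, and -0.27, adjusted p = 0.56 after scaling). FKBP1A lost its call in 4 dpi inhibitor against 4 dpi control cords without 4 dpi inhibitor replicate 5 or 7 or uninjured inhibitor replicate 5, 6 or 7 or 4 dpi control replicate 1 or 6 or uninjured replicate 5 (adjusted p 0.0516 to 0.21).

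Of 29 listed genes that TGF-β and BMP signals induce, 28 were tested. In 4 dpi inhibitor against uninjured cords 6 fell (21.4%, against 31.2% of all genes) and 4 rose (14.3%, against 9.39%). After scaling 0 fell (against 12%) and 7 rose (25%, against 16.6%). In uninjured inhibitor against uninjured cords 13 fell (46.4%, against 51.1%) and 0 rose (against 7.39%), and after scaling 5 fell (17.9%, against 17.8%) and 2 rose (7.14%, against 19.4%). The median log2 fold change of these targets without injury was -0.86 as deposited and 0.08 after scaling, again beside -1.10 and -0.17 over all genes. The matrix proteoglycan gene BGN had 21.1, 16.04 and 14.4 TPM in the 4 dpi inhibitor group and 3.39, 16.4 and 2.27 TPM in the uninjured inhibitor group. The BGN values were 209.6, 41.9 and 59.4 TPM in 4 dpi controls and 99.6, 81.9 and 65.8 TPM in uninjured cords. All 4 dpi inhibitor values of BGN were below its uninjured values, with the maximum in 4 dpi control replicate 1. BGN fell in 4 dpi inhibitor (-2.25, adjusted p = 0.0195, and -1.58, adjusted p = 0.0606 after scaling) against uninjured cords. In uninjured inhibitor cords BGN fell on both scales (-3.98, adjusted p = 0.00182, and -3.05, adjusted p = 0.00358 after scaling). ACTA2, smooth muscle actin, fell in 4 dpi inhibitor cords to 113 ± 4.06 TPM, against 545 ± 276 TPM in uninjured cords (SD, n = 3 each; -2.13, adjusted p = 0.00741, and -1.45, adjusted p = 0.0561 after scaling). ACTA2 had 281, 831 and 523 TPM in uninjured replicate 1, the unnumbered library and replicate 5. Skeletal muscle markers summed to 10839, 43360 and 28044 TPM in these libraries, and to 6016 to 6673 TPM in 4 dpi inhibitor libraries. The part of muscle in the ACTA2 result was not tested. With a replicate block the ACTA2 and BGN calls in 4 dpi inhibitor against uninjured cords were lost. The call of BGN in 4 dpi inhibitor against uninjured cords was also lost without 4 dpi inhibitor replicate 6 or 7 or uninjured replicate 1 (adjusted p 0.0503 to 0.0658).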

How the data were processed

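Spinal cord RNA of 4 groups of 3 libraries was sequenced. Reads of all samples together were assembled de novo by the authors with Trinity, reduced the contigs with cd-hit-est, named them by their best BLASTX hit among human Ensembl proteins, mapped reads with Bowtie 0.12.1 and deposited TPM per human gene symbol from RSEM 1.1.6. A value is the sum over all contigs of that symbol, and axolotl paralogs with a common best human hit are therefore not separated. The authors' own tests, made with DESeq2 1.16.1 on counts, were not used.

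TPM sum to 1000000 in each library and hold neither counts nor depth, so no counting interval was given. The labels give 10 pooled animals per library and do not say how the pools were kept apart, so p-values measure the spread between these libraries only. As deposited, 25 gene symbols had become dates and were restored to names. Genes averaging under 1 TPM were left out, and log2(TPM + 0.1) of 13824 genes was fitted with limma 3.58.1 (R 4.3.3), with 1 coefficient per group over all 12 libraries, which leaves 8 residual degrees of freedom, moderated with a variance trend, and Benjamini-Hochberg adjustment over all genes fitted. This fit gives all groups 1 spread per gene, although the groups differed in spread. On log2 values uninjured libraries correlated at 0.765 to 0.887, 4 dpi control libraries at 0.905 to 0.963 and uninjured inhibitor libraries at 0.931 to 0.964. Those of 4 dpi inhibitor stood at 0.961 to 0.969. P-values against uninjured cords can therefore be too small, and those between the other groups too large. Median-of-ratios factors from genes above 0 in every library gave the scaled values. The steps were checked on simulated data with the same spread in all groups, no shift between groups and changes in 1 group only. That check therefore does not give error rates for these data.

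Members were taken by symbol, and 48 of 50 symbols, all but GDF3 and ID1, also name a gene of the axolotl RefSeq annotation (UKY_AmexF1_1). Values in every library were given for members called in any comparison on either scale and for the most abundant member of each role, and values of listed genes outside the members for those averaging at least 5 TPM in the higher group, with the largest called changes. A listed target gene that this rule names is not reported here. Members and gene lists were chosen with earlier results of these data known. Alternatives were a pseudocount of 1, no minimum or a minimum of 5 TPM, scaling, no variance trend, a replicate block, only the libraries compared, and leaving out libraries.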

Additional observations from a re-analysis of the deposited data

How the results depend on the processing

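All counts here are of the 45 members called at an adjusted p under 0.05 by limma. Counts of all genes called in the same fits are not given, so moves of members cannot be told from moves of all genes. Leaving out 1 library gave 0 to 0 members between 4 dpi control and uninjured cords, 0 to 6 between 4 dpi inhibitor and 4 dpi control, 21 to 31 for uninjured inhibitor against uninjured, 0 to 6 for 4 dpi inhibitor against uninjured inhibitor, 7 to 18 for 4 dpi inhibitor against uninjured and 0 to 0 for the interaction. On scaled values the same ranges were 0 to 1, 0 to 0, 6 to 16, 0 to 8, 3 to 10 and 0 to 1. Of the calls, 18 of 31 in uninjured inhibitor and 7 of 15 in 4 dpi inhibitor against uninjured cords held in every such fit, and 5 of 15 and 3 of 9 after scaling. Scaling itself gave 15 in place of 31, 9 in place of 15 and, for 4 dpi inhibitor against 4 dpi control, 0 in place of 1, and turned the fold changes of SMAD2 to 0.022 and SMAD3 to 0.26 in uninjured inhibitor against uninjured cords, since it moves every gene of a library alike. For 4 dpi inhibitor against 4 dpi control the count was also 0 with no filter on low values, 0 with no variance trend and 0 without both libraries numbered 1, 2 (ID2 and ID3) with a minimum mean of 5 TPM, and 8 when only the libraries compared were fitted. A minimum of 5 TPM left 20 calls in uninjured inhibitor against uninjured cords, as fewer members were tested. For 4 dpi inhibitor against uninjured inhibitor the count was 1 (INHBA) without both libraries numbered 1, also after scaling, and 2 (INHBA and TGFBR1) with only the libraries compared. Without both libraries numbered 1, 25 members were called in uninjured inhibitor against uninjured cords, FST and ID1 among them, which were not called with all libraries. Scaled values without both libraries numbered 1, chosen after seeing the data, gave 8 calls for uninjured inhibitor against uninjured. For LRRC32 and NRROS, outside the members, the same fits for uninjured inhibitor against uninjured cords were added after seeing the data. Where no reason is given the cause was not tested.

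Library numbers were not taken to pair the samples, since same-numbered libraries of different groups had a correlation of deviations over 0.1 in 3 of 11 pairs (correlations of -0.307 to 0.507, median 0.0129, against a median of 0.0221 in 43 pairs with different numbers). The highest of all pairs was that of both libraries numbered 1, at 0.507, and 4 dpi control and uninjured replicate 5 stood at 0.199. With a replicate block, which in effect leaves out the unnumbered library, 1 member (TGFB1) was called between 4 dpi control and uninjured cords, 8 between 4 dpi inhibitor and uninjured inhibitor cords, 22 for uninjured inhibitor against uninjured (SMAD4 and TGFBR1 among them, which were not called without the block) and 10 for 4 dpi inhibitor against uninjured. With scaling and the replicate block, also chosen after seeing the data, these were 1 (TGFB1), 6, 5 and 2. Among the calls lost with the block were, for 4 dpi inhibitor against uninjured, SMAD7 as deposited and SMAD6, ID3 and ACVR1 after scaling. For uninjured inhibitor against uninjured, those of GREM1, GDF6, LTBP2 and LTBP4 were lost on both scales. As deposited, those of TGFBR3, LTBP3, BMPR1B, TGFB3, BMP3, BMP1 and SMAD3 were also lost. After scaling, those of ID3, SMAD6, ACVR1B, INHBB, ACVR2B, TGFB2, NOG and ACVR1 were also lost. SMAD1, BMPR2 and SMAD5 kept their scaled calls there, and not all of the 5 were called without the block.

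With 3 libraries a group and TPM that sum to a fixed total, a fall of most genes cannot be told apart from a rise of a few abundant ones, and changes of members near 1 TPM depend on the 0.1 TPM added. Depth, and with it the precision of low values, is unknown.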
